A study of Mus musculus with 2 samples.

Results

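The 10 genes described here encode the enzymes and the helper protein that make prostaglandins, thromboxane and leukotrienes from arachidonic acid: Pla2g4a, Ptgs1, Ptgs2, Ptges, Ptges2, Ptges3, Tbxas1, Alox5, Alox5ap and Lta4h. They were chosen by name for their place in the pathway, not by their values, though earlier results of these data were known. All 10 were found among 55536 annotated genes. The RNA was ribosomal-RNA-depleted total RNA from the nucleoplasm, the soluble part of the nucleus, of macrophages grown from C57BL/6J mouse bone marrow. The cells had received Lipid A, the membrane anchor of bacterial endotoxin and a ligand of Toll-like receptor 4, at 100 ng/ml for 12 h, had then been without it for 12 h, and were harvested at 0 min of a new dose of 100 ng/ml. Replicates 1 and 2 are biological replicates from separate biosamples that share 1 donor label, with 1 µg of starting RNA for replicate 1 and 500 ng for replicate 2. The labels do not give the sex or age of the mice or say whether animals were pooled. With 1 group, no condition could be compared with another, so the results below are levels, ratios between genes within a library, and differences between the libraries. Starting amount and replicate number changed together and cannot be told apart.

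Macrophages release arachidonic acid from membrane phospholipids with phospholipases A2. The cyclooxygenases turn it into prostaglandin H2, from which separate terminal synthases make prostaglandin E2, prostaglandin D2, prostacyclin or thromboxane A2. In the other branch, 5-lipoxygenase, helped by its activating protein in the nuclear membrane, makes leukotriene A4, which becomes either leukotriene B4 or the cysteinyl leukotrienes. In macrophages these lipids are made on demand and shape fever, pain, vessel tone and the recruitment of neutrophils. Transcript levels in the nucleus are not levels of enzyme or of product.

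The gene-level tables held 22907877 expected counts for replicate 1 and 18612405 for replicate 2. A gene's level is given in TPM, which divides counts by transcript length and scales each library to a fixed total, so that different genes can be set side by side. A second deposited quantification of the same libraries is quoted beside some of the levels, ratios and transcript shares. The figures of levels and of transcript types show it for all 10 genes. All 10 macrophage markers stood at 10 TPM or more in both libraries, with Lyz2, a lysozyme, highest at 1368 TPM in replicate 1 and 1126 in replicate 2. Other cell types were covered by 41 markers, of which 35 stayed under 1 TPM in both libraries and 10 were listed at 0 in both. Among protein-coding genes 44.4% stood at 1 TPM or more in both libraries. The exceptions, named after their values were seen, were Pf4, Batf3, Pecam1, Kit, Mmp8 and Ltf. Batf3, a dendritic cell marker, had 6.99 and 2.43 TPM. Pecam1, an endothelial marker, had 1.58 and 0.86 TPM, and 2.88 and 7.93 TPM in the second quantification. Neutrophil markers, which matter here because neutrophils are rich in 5-lipoxygenase, summed to 2.37 TPM in replicate 1 and 2.89 in replicate 2, with Ly6g, Camp and Cxcr2 listed at 0. The second quantification put their sum at 2.51 and 4.84 TPM, with Cxcr2 at 0.863 and 1.87 TPM, Camp at 0.276 and 0.165 TPM and Ly6g at 0, and their part in the Alox5 level was not tested. Platelet and megakaryocyte markers, of a lineage that makes thromboxane, summed to 13.75 and 17.85 TPM, of which Pf4, a chemokine that macrophages also express, gave 12.51 and 16.68 TPM. In bulk RNA, fewer cells of a type and less RNA per cell cannot be told apart.

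Of the 10 synthesis genes, 9 stood at 1 TPM or more in both libraries, against 44.4% of protein-coding genes and 22.4% of all annotated genes. At 10 TPM or more in both there were 4, Tbxas1, Alox5ap, Ptges3 and Lta4h, against 19.7% of protein-coding genes. Mean levels ran from 0.58 TPM for Alox5 to 53.2 TPM for Tbxas1, a 91.8-fold span. By mean TPM the order was Tbxas1, Alox5ap, Ptges3, Lta4h, Pla2g4a, Ptges, Ptgs2, Ptgs1, Ptges2 and Alox5. Of the 9 neighbouring pairs in that order, 5 did not overlap between the libraries: Tbxas1 above Alox5ap, Alox5ap above Ptges3, Lta4h above Pla2g4a, Pla2g4a above Ptges, and Ptges2 above Alox5. Ptges3 and Lta4h overlapped, and so did each neighbouring pair from Ptges through Ptgs2 and Ptgs1 to Ptges2. In the second quantification 4 of the 5 pairs were again apart, the exception being Lta4h and Pla2g4a. The median of the 10 genes on the log2(TPM + 0.1) scale was 2.51 in replicate 1 and 2.46 in replicate 2, above the median of all protein-coding genes (-0.94 and -0.88) and below that of protein-coding genes at 1 TPM or more (3.24 and 3.20).

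**Figure D1:**
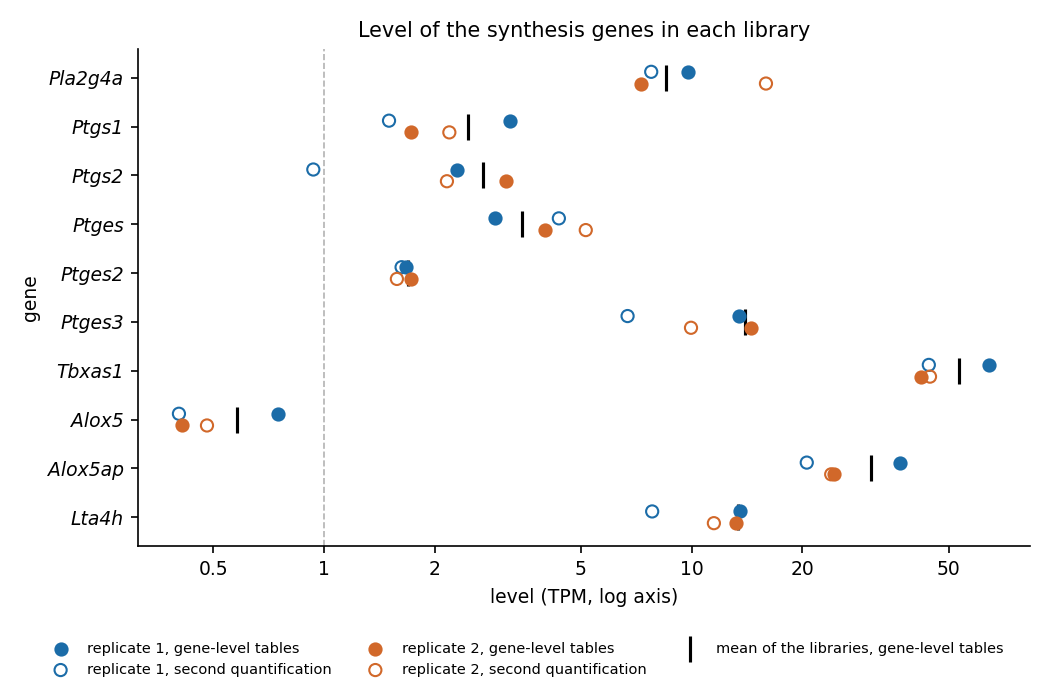
Level of each of the 10 synthesis genes in TPM on a log axis, with filled points for the gene-level tables, open points for the second quantification, black ticks for the mean of the 2 libraries and a dashed line at 1 TPM. Tbxas1 and Alox5ap are highest in both libraries, and Alox5 is the only gene below 1 TPM in both libraries of the gene-level tables.

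Substrate release was represented by Pla2g4a, which encodes cytosolic phospholipase A2, the enzyme that frees arachidonic acid from membranes when calcium rises. Pla2g4a (mm10 chr1:149829618-149961290, minus strand) had 681 expected counts and 9.76 TPM in replicate 1, and 474 counts and 7.30 TPM in replicate 2 (mean 8.53 ± 1.74 TPM, SD, n = 2). It was above 76.5% of protein-coding genes. The second quantification gave it 7.76 TPM in replicate 1 and 15.9 in replicate 2, so the order of the libraries turned round between the quantifications on the TPM scale. That order also turned for Ptgs1, Ptges2, Tbxas1, Alox5, Alox5ap and Lta4h, in part by small gaps, and held for Ptgs2, Ptges and Ptges3. The transcript Pla2g4a-201, which encodes the protein from 18 exons, was the highest at 5.62 and 4.03 TPM. Pla2g4a-204, an annotated retained-intron transcript with 92.0% of its bases outside the exons of the gene's protein-coding transcripts, had 2.52 and 2.60 TPM. Pla2g4a lies 138.74 kb from Ptgs2 on the opposite strand, with 3 annotated genes between them and no protein-coding one.

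The cyclooxygenases stood close together at low levels. Ptgs1 encodes cyclooxygenase-1, the form that most tissues make at rest, and Ptgs2 encodes cyclooxygenase-2, the form that inflammatory stimuli induce and the main target of anti-inflammatory drugs that spare cyclooxygenase-1. Ptgs1 (chr2:36230426-36252272, plus strand) had 171 counts and 3.20 TPM in replicate 1, and 87 counts and 1.72 TPM in replicate 2 (2.46 ± 1.05 TPM, SD, n = 2). Ptgs2 (chr1:150100031-150108227, plus strand) had 282 counts and 2.30 TPM in replicate 1, and 325 counts and 3.13 TPM in replicate 2 (2.72 ± 0.587 TPM, SD, n = 2). In the gene-level tables the genes took opposite orders in the libraries. The Ptgs1 to Ptgs2 ratio of TPM was 1.39-fold in replicate 1 (95% counting interval 1.14 to 1.69) and 0.550-fold in replicate 2 (0.428 to 0.697). Neither gene was thus above the other beyond the spread between libraries (mean log2 ratio of TPM + 0.1, -0.18 ± 0.91, SD, n = 2). The second quantification put the ratio at 1.61-fold in replicate 1 and 1.02-fold in replicate 2 (mean log2 0.33 ± 0.43). The counting intervals, here and below, come from the exact binomial (Clopper-Pearson) method and cover counting error only.

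Both of the 2 annotated transcripts of Ptgs2 are protein-coding, so its protein-coding share is 100% by annotation. Ptgs2-201, with 10 exons, took all of its transcript TPM in both libraries, against 100% and 80.0% in the second quantification. For Ptgs1 the protein-coding share was 64.1% in replicate 1 and 73.3% in replicate 2, and retained-intron transcripts held 31.9% and 26.7%. The second quantification gave Ptgs1 56.3% and 22.1% in protein-coding transcripts and 39.2% and 52.0% in retained-intron ones, so the leading class turned round in replicate 2. Ptgs1-201 was its highest transcript at 2.05 and 1.26 TPM. Of the noncoding genes beside Ptgs2, Ptgs2os had 0.02 and 0.04 TPM. Ptgs2os2 had 0.07 and 0.11 TPM in the gene-level tables, but 1.06 and 1.31 TPM in the second quantification, where Ptgs2 had 0.935 and 2.16 TPM.

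The promoters of the cyclooxygenase pair are shown because the genes make the same product but are known for different control, and RefSeq gives the 250 bases before each annotated start (GRCm38.p6, plus strand, written 5′ to 3′). In Ptgs1 (chr2:36230176-36230425) the capitals mark the PU.1 letters GAGGAAGT, which begin at position -24 from the start. PU.1 is a factor that macrophages need to form. In Ptgs2 (chr1:150099781-150100030) the capitals mark the C/EBP letters TTGCNNAA, which begin at position -69. C/EBP factors are known regulators of inflammatory genes.
Ptgs1 promoter: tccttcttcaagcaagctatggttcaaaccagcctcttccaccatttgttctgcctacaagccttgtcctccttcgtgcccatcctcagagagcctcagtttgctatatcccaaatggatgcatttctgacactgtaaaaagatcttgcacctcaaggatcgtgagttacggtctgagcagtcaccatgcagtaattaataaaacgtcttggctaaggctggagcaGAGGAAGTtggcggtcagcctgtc
Ptgs2 promoter: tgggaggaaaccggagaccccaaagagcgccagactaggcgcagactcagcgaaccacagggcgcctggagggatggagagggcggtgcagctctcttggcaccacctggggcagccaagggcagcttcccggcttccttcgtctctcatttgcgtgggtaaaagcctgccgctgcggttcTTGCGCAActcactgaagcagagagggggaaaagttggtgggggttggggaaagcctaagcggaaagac
Both strands were searched, and the PU.1 letters occurred in 2.44% and the C/EBP letters in 9.56% of 32851 RefSeq windows of 250 bases. Of the 9 synthesis genes with a window, PU.1 letters were found in Ptgs1 and C/EBP letters in Ptgs2. GC box letters, GGGCGG, occurred in 32.7% of windows and in those of Alox5, Ptges, Ptges3 and Ptgs2. The cAMP response element core, TGACG, was in none of the 9 windows of 250 bases and in 17.8% of all, but in windows of 300 bases, which add 50 bases after the start, it was in Ptges3 and Ptgs2 and in 20.8% of all. The E-box, CACGTG, was found in Ptges2 and in 6.02% of windows of 250 bases, and in Ptges2 and Ptgs2 and in 7.15% of windows of 300 bases. The other motifs were in the same synthesis genes at both lengths. The interferon-stimulated response element was in none of the 9 windows of 250 bases and in 2.98% of all. These matches describe letters, not binding.

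The prostaglandin E synthases differed in level. Ptges3 encodes p23, an Hsp90 co-chaperone that is also named cytosolic prostaglandin E synthase. Ptges encodes the membrane-bound synthase that inflammatory stimuli induce, of the same protein family as the 5-lipoxygenase-activating protein, and Ptges2 encodes a further membrane-associated one. Ptges3 (chr10:128058954-128077272, plus strand) had 13.44 TPM in replicate 1 and 14.48 in replicate 2 (14.0 ± 0.735 TPM, SD, n = 2), from 645.12 and 605.63 expected counts. Ptges (chr2:30889471-30929863, minus strand) had 2.91 TPM in replicate 1 and 3.99 in replicate 2 (3.45 ± 0.764 TPM, SD, n = 2), from 288 and 213 counts. Ptges2 (chr2:32395896-32405772, plus strand) had 1.67 and 1.72 TPM (1.70 ± 0.0354 TPM, SD, n = 2), from 86 and 80 counts. No library of a lower gene reached a library of a higher one.

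Ptges3 was 4.62-fold Ptges in replicate 1 and 3.63-fold in replicate 2 in plain TPM (mean log2 ratio of TPM + 0.1, 2.00 ± 0.24, SD, n = 2). The second quantification placed Ptges3 less far above Ptges, at a mean log2 of 0.77 ± 0.23. Ptges2 was below Ptges in both libraries, at a mean log2 of -0.97 ± 0.28, and at -1.51 ± 0.20 in the second quantification. Ptges3 was almost wholly in protein-coding transcripts, 92.9% in replicate 1 and 97.2% in replicate 2, led by Ptges3-201 at 12.48 and 12.93 TPM. For Ptges the quantifications disagreed. The transcript tables gave protein-coding transcripts 100% in replicate 1 and 57.4% in replicate 2, while the second quantification gave processed transcripts, which hold no open reading frame in the annotation, 71.8% and 74.9%. For Ptges2 the retained-intron transcript Ptges2-203, of 765 bases, led with 1.03 and 1.17 TPM, while the protein-coding Ptges2-201, of 4978 bases, had 0.50 and 0.55 TPM. Only 8.76% of the bases of Ptges2-203 lie outside the exons of the gene's protein-coding transcripts, and its level rests on 15.89 and 15.84 counts. By counts, without dividing by length, protein-coding transcripts held 80.2% of Ptges2 in each library.

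Tbxas1 was the highest of the 10 genes in both libraries. It encodes thromboxane A synthase, a cytochrome P450 family enzyme that turns prostaglandin H2 into thromboxane A2, which constricts vessels and activates platelets. Tbxas1 (chr6:38875404-39084585, plus strand) had 4153 counts and 64.47 TPM in replicate 1, and 2783 counts and 41.96 TPM in replicate 2 (53.2 ± 15.9 TPM, SD, n = 2). By the second quantification it had 44.2 TPM in replicate 1 and 44.5 in replicate 2. It took 54.7% of the counts of the 10 genes in replicate 1 and 50.6% in replicate 2, which are not per length. Of their summed TPM it took 43.3% and 37.4%, and it was above 96.6% of protein-coding genes. Against Ptges, which draws on the same substrate, it was 22.2-fold higher in replicate 1 and 10.5-fold higher in replicate 2 (mean log2 3.89 ± 0.75, SD, n = 2), and in the second quantification the mean log2 was 3.20 ± 0.16.

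Much of the Tbxas1 signal was assigned to annotated retained-intron transcripts, which keep sequence that the protein-coding transcripts splice out. They held 59.2% of its transcript TPM in replicate 1 and 77.0% in replicate 2, and 81.9% and 89.6% of its transcript counts. The second quantification gave them 43.4% and 51.7% of TPM. Tbxas1-202 was the highest transcript of the transcript tables at 17.59 and 14.13 TPM, with 48.3% of its 2481 bases outside protein-coding exons. Its second-quantification values were 6.42 and 7.11 TPM, and the highest there was Tbxas1-207, a processed transcript, at 10.3 and 12.5 TPM. Tbxas1-205, of 4562 bases with 57.3% outside them, followed at 13.63 and 12.59 TPM. The full-length protein-coding transcript of 13 exons, Tbxas1-201, had 9.53 TPM in replicate 1 and 4.36 in replicate 2. The short protein-coding Tbxas1-203, of 403 bases, had 9.35 TPM in replicate 1 but 1.27 TPM in replicate 2, from 46.43 and 5.9 counts. The start of Tbxas1 overlaps Hipk2, a kinase gene on the other strand with 2293 and 2273 counts, and how strand was used in counting is not given in the sources used here.

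The promoter window of Tbxas1, chosen after its level was seen because it was the highest gene, lies on the plus strand at chr6:38918736-38918985, next to the RefSeq start and inside the annotated span of the gene. Its capitals mark the AP-1 letters TGANTCA, beginning at position -61, and the TATA box letters TATAAA, which match on both strands in 1 overlapping run close to the start. AP-1 is a factor family that Toll-like receptor signals activate.
Tbxas1 promoter: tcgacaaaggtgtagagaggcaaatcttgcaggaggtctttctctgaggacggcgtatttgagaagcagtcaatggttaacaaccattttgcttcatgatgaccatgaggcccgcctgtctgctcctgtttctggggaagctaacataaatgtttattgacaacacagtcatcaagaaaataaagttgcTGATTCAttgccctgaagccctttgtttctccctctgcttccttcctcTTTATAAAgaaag
AP-1 letters occurred in 6.75% of the 250-base windows and, among the synthesis genes, in Tbxas1. TATA box letters occurred in 12.4% of windows, and in those of Pla2g4a and Tbxas1.

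On the leukotriene side, the activating protein was high and the lipoxygenase itself was low. Alox5ap encodes the 5-lipoxygenase-activating protein, which presents arachidonic acid to the enzyme. Alox5ap (chr5:149264767-149288153, plus strand) had 768 counts and 36.96 TPM in replicate 1, and 519 counts and 24.42 TPM in replicate 2 (30.7 ± 8.87 TPM, SD, n = 2), above 92.9% of protein-coding genes. By the second quantification it had 20.6 TPM in replicate 1 and 24.0 in replicate 2. Alox5, which encodes 5-lipoxygenase (chr6:116410077-116461178, minus strand), had 25 counts and 0.75 TPM in replicate 1, and 24 counts and 0.41 TPM in replicate 2 (0.58 ± 0.240 TPM, SD, n = 2). It was the lowest of the 10 genes in both libraries, above 51.3% of protein-coding genes.

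Alox5ap exceeded Alox5 by 49.3-fold in replicate 1 (95% counting interval 32.9 to 76.2) and by 59.6-fold in replicate 2 (40.0 to 94.8) in plain TPM. The mean log2 ratio of TPM + 0.1 was 5.52 ± 0.10 (SD, n = 2), and 5.37 ± 0.01 in the second quantification. Alox5ap signal lay mainly in protein-coding transcripts, 75.0% in replicate 1 and 92.9% in replicate 2, led by Alox5ap-201 at 22.43 and 19.14 TPM. The few Alox5 counts lay in retained-intron transcripts, which held 96.0% of its TPM in replicate 1 and 100% in replicate 2. Alox5-206 had 0.62 and 0.15 TPM, and the protein-coding Alox5-201 had 0.03 TPM in replicate 1 and was listed at 0 in replicate 2. Alox5-204, the other retained-intron transcript with counts, had 0.10 and 0.26 TPM. Only 16.9% of the bases of Alox5-206 and 27.9% of those of Alox5-204 lie outside the exons of protein-coding transcripts. The second quantification also placed most Alox5 signal in retained-intron transcripts, 71.9% and 71.4%.

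The promoter window of Alox5, chosen after its level was seen because it was the lowest gene, lies on the minus strand at chr6:116461179-116461428. Its capitals mark a GC box, GGGCGG, the letters that the factor Sp1 reads, beginning at position -35.
Alox5 promoter: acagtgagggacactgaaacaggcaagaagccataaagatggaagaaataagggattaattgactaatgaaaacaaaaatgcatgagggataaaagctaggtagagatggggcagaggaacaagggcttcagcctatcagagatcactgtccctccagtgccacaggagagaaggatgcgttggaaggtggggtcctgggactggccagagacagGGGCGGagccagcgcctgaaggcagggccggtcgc
The PU.1, C/EBP and AP-1 letters were not in this window.

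Lta4h encodes leukotriene A4 hydrolase, which makes leukotriene B4, a strong attractant of neutrophils. Lta4h (chr10:93453411-93484875, plus strand) had 500 counts and 13.52 TPM in replicate 1, and 391 counts and 13.21 TPM in replicate 2 (13.4 ± 0.219 TPM, SD, n = 2). Ltc4s, the synthase that sends leukotriene A4 to the cysteinyl leukotrienes instead, had 3 counts and 0.35 TPM in replicate 1, and 2 counts and 0.20 TPM in replicate 2. Lta4h was thus 38.6-fold higher than Ltc4s in replicate 1 (counting interval 13.1 to 187) and 66.1-fold higher in replicate 2 (18.1 to 546), and the width of the intervals comes from the few Ltc4s counts. In the second quantification Ltc4s had 0.407 and 1.20 TPM and the mean log2 ratio was 3.56 ± 0.57 (SD, n = 2), against 5.20 ± 0.39 from the gene-level tables. Lta4h-201, with 19 exons, was its highest transcript in the transcript tables at 5.89 TPM in replicate 1 and 4.17 in replicate 2. Retained-intron transcripts together held 55.4% and 66.6% of Lta4h, Lta4h-206 foremost at 2.65 and 4.02 TPM. The second quantification gave Lta4h-201 2.75 and 3.09 TPM and Lta4h-206 1.54 and 3.63 TPM, so Lta4h-206 led in replicate 2.

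Across the 10 genes, the share of transcript TPM in protein-coding transcripts had a median of 69.1% in replicate 1 and 60.9% in replicate 2, beside 74.0% and 73.2% over 9784 protein-coding genes at 1 TPM or more. Of the 10 genes, 7 have an annotated retained-intron transcript. In 4 of them, Ptges2, Tbxas1, Alox5 and Lta4h, these transcripts held over 50% of the gene's TPM in both libraries, beside 15.4% of the 6143 genes at 1 TPM or more that have one. Only 2 genes did in the second quantification, Alox5 and Lta4h, and by transcript counts 2 did, Tbxas1 and Alox5, so Alox5 alone passed each way. The same 4 genes had under 50% in protein-coding transcripts in both libraries, beside 19.7% of genes at 1 TPM or more. In the second quantification Pla2g4a and Ptges joined them, making 6, and by transcript counts 2 were left, Tbxas1 and Alox5. Alox5, below 1 TPM, is not among the genes behind these background shares, which are by transcript TPM of the transcript tables only. These 4 genes sit at the top, middle and bottom of the level order.

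**Figure D2:**
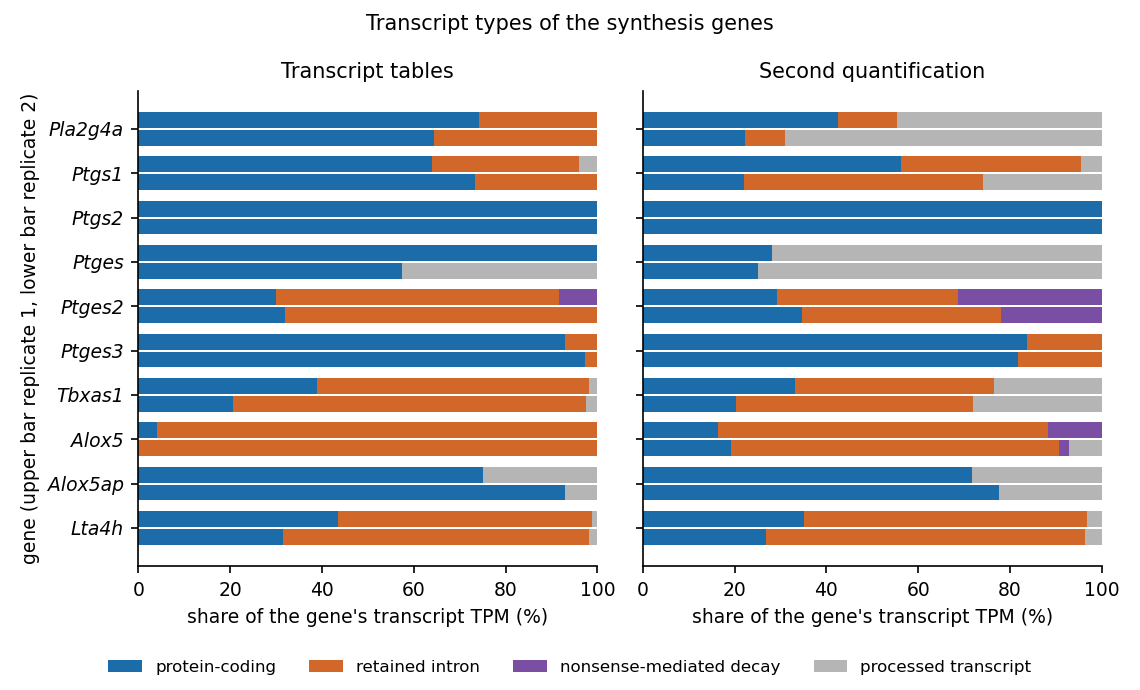
Share of each gene's transcript TPM by annotated transcript type, from the transcript tables (left) and the second quantification (right), with the upper bar of each pair for replicate 1 and the lower bar for replicate 2. Ptgs2 has only protein-coding transcripts in the annotation, and retained-intron transcripts lead for Ptges2, Tbxas1, Alox5 and Lta4h in both quantifications. Pla2g4a and Ptges move to processed transcripts in the second quantification.

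Of 65 other genes of the pathway, in 6 lists, 25 stood at 1 TPM or more in both libraries and 13 were listed at 0 in both. Among protein-coding genes 44.4% stood at that level, a larger share, and among all annotated genes 22.4%, a smaller one. The counts for each list below are to be read beside these shares. The highest was Hpgds, the hematopoietic prostaglandin D synthase, at 158.89 TPM in replicate 1 and 150.27 in replicate 2, from 11199 and 9879 counts. It stood above every synthesis gene, 2.46-fold above Tbxas1 in replicate 1 and 3.58-fold in replicate 2, and 54.6-fold and 37.7-fold above Ptges. By the second quantification Hpgds was 2.08-fold and 2.65-fold above Tbxas1, and 21.1-fold and 22.9-fold above Ptges. These ratios to Hpgds were computed after its level was seen. Gm17147, a processed pseudogene on the opposite strand inside Hpgds, had 470 and 359 counts. Ptgds, the other prostaglandin D synthase, was listed at 0 in both libraries, and Ptgis, the prostacyclin synthase, had 0 and 2 counts. Among terminal synthases and reductases 6 of 10 reached 1 TPM in both libraries, with Mgst1, a microsomal glutathione transferase of the same family as Ptges, next at 13.58 and 17.78 TPM.

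Among other phospholipases A2 and lipases 5 of 16 reached 1 TPM in both libraries. Pla2g15, a lysosomal phospholipase, had 56.38 TPM in replicate 1 and 40.48 in replicate 2, above Pla2g4a in both, and Pla2g7, which breaks down platelet-activating factor, had 19.74 and 13.65 TPM. Of 8 other lipoxygenases and epoxide hydrolases none reached 1 TPM in both libraries. Ephx1, the microsomal epoxide hydrolase, had 0.75 and 2.22 TPM, Alox12 had 0.46 TPM in each, and Alox15, Alox12b, Alox12e and Ephx2 were listed at 0 in both.

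For breakdown, peptide removal and export, 6 of 12 genes reached 1 TPM in both libraries. Dpep2, a dipeptidase that trims leukotriene D4, led at 18.53 TPM in replicate 1 and 23.42 in replicate 2, and Abcc1, an exporter of leukotriene C4, had 11.87 and 20.09 TPM. Hpgd, which inactivates prostaglandins, had 0.02 and 0.17 TPM. Among receptors 8 of 17 reached 1 TPM in both. Cmklr1, a receptor for chemerin and resolvin E1, had 22.47 and 11.62 TPM, and Fpr2, the receptor for lipoxin A4, had 17.23 and 15.94 TPM. Tbxa2r, the thromboxane receptor, was listed at 0 in both libraries, and Ltb4r1, the high-affinity leukotriene B4 receptor, had 4 counts in each. The prostaglandin E2 receptor genes Ptger4, at 13.19 and 11.01 TPM, and Ptger2, at 4.42 and 4.61 TPM, and the prostacyclin receptor gene Ptgir, at 3.02 and 6.29 TPM, are named for their ligands after their values were seen.

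**Figure D3:**
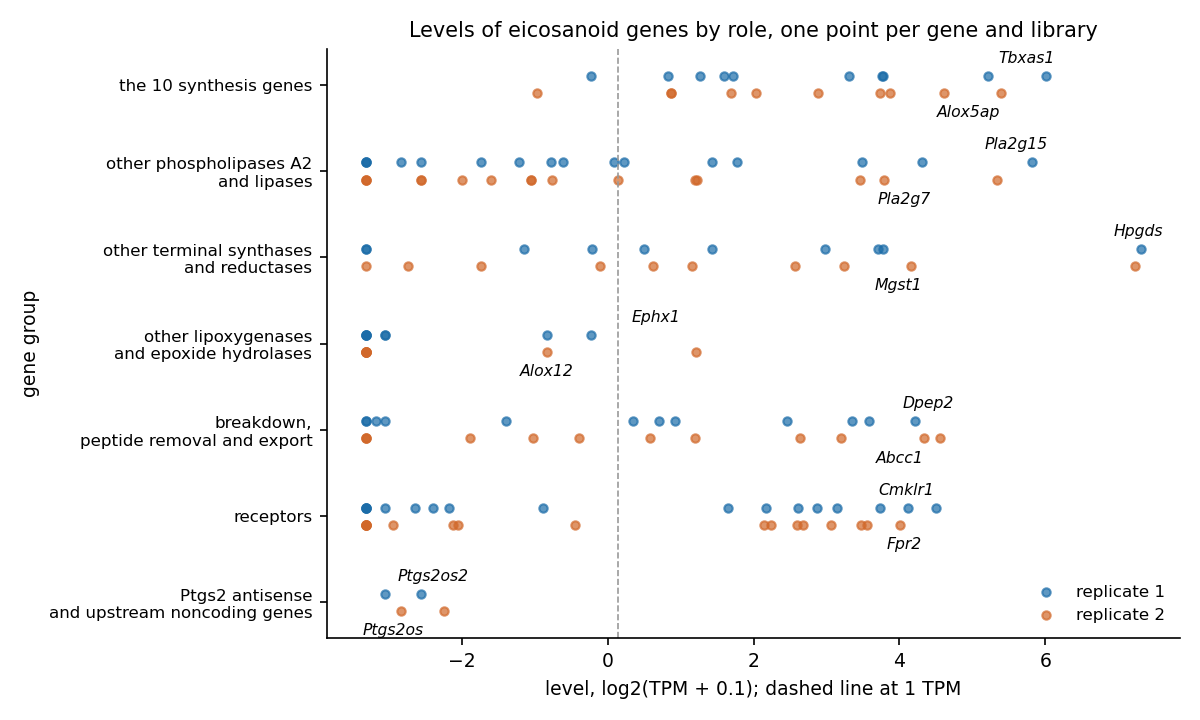
Levels of the 10 synthesis genes and of 65 other eicosanoid genes grouped by role, on the log2(TPM + 0.1) scale, with 1 point per gene and library, the 2 highest genes of each group named and a dashed line at 1 TPM. Hpgds lies above all 10 synthesis genes, and among the other lipoxygenases and epoxide hydrolases only Ephx1 passes the dashed line, in replicate 2.

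Between the libraries, none of the 10 genes differed by a log2 ratio of 1 or more with a mean count of 100 or more, the limits used to call a gene apart, and 2.00% of 10198 genes with such a mean count did (1.18% higher in replicate 1 and 0.824% lower). Of the 10, 8 had that mean count. With 1 library on each side this ratio of counts, scaled by the TMM method, has no test. It was positive, higher in replicate 1 than in replicate 2, for 6 genes and negative for 4, with a median of 0.14. The farthest from 0 were Ptgs1 at 0.72 (95% counting interval 0.34 to 1.11) and Ptgs2 at -0.46 (-0.70 to -0.23), which moved in opposite directions. Tbxas1 had 0.32 (0.25 to 0.39), Alox5ap had 0.31 (0.15 to 0.47) and Pla2g4a had 0.27 (0.10 to 0.44). The counting intervals excluded 0 for 6 genes, the 5 named and Ptges3. Except for Ptgs1, the genes lay within 0.47, the SD of the ratio over 14892 genes past the count filter. For Alox5 the interval ran from -1.06 to 0.67, so a difference up to these sizes was not detectable at its depth.

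**Figure D4:**
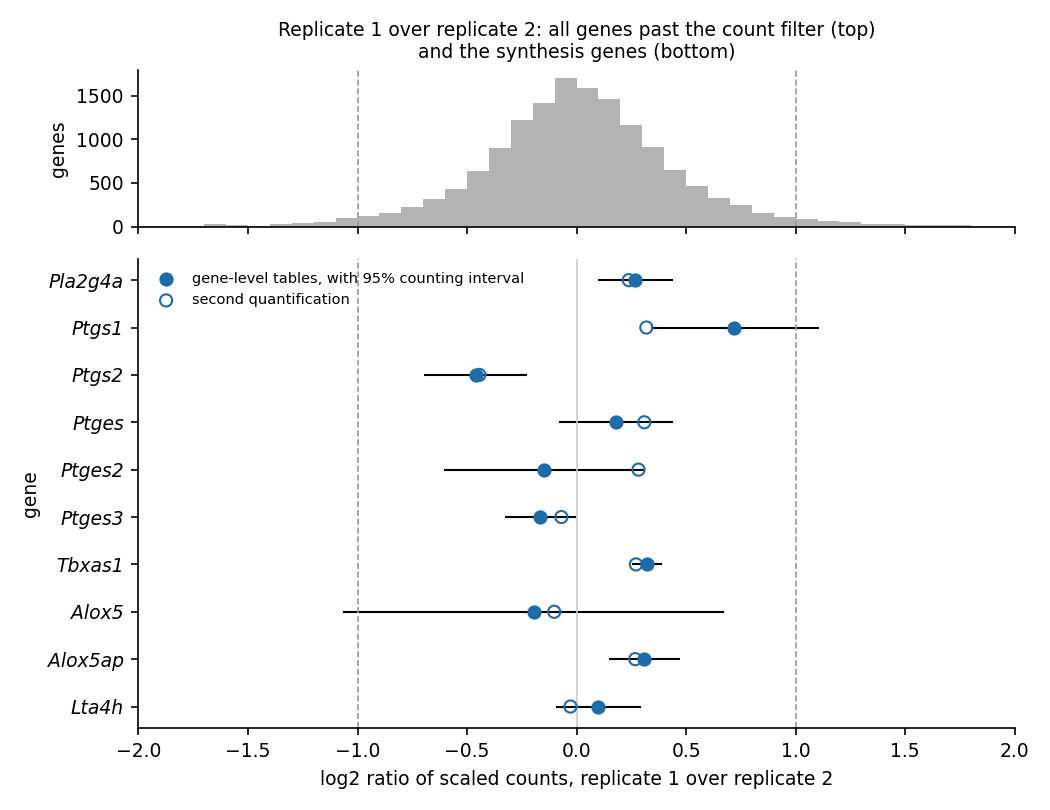
Log2 ratio of scaled counts, replicate 1 over replicate 2, for all genes past the count filter (top, number of genes per bin, with 40 genes beyond the axis) and for the 10 synthesis genes (bottom, bars for the 95% counting interval, open points for the second quantification, dashed lines at a log2 ratio of -1 and 1). All 10 genes lie between the dashed lines, with Ptgs1 farthest to the right and Ptgs2 farthest to the left.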

How the data were processed

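Nucleoplasmic total RNA of 1 group of macrophages was analysed in 2 libraries, grouped by GEO's labels. The authors' gene-level and transcript-level tables, deposited per library, give expected counts and TPM, with bounds on TPM whose confidence level is not given in the sources used here. A second deposited table per library gives estimated counts and TPM per transcript, summed here per gene. Per the notes deposited with them, the expected counts rest on reads aligned to transcripts and the second values on the reads directly, on mm10 with GENCODE M21. Reads in introns outside annotated transcripts are thus not in these values. Program names, versions and strand settings are absent from the labels and notes used here, so overlapping and antisense genes and near-identical copies are uncertain.

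Entries naming no gene (26345, holding 1.01% of counts in replicate 1 and 0.336% in replicate 2) were left out, and 86 genes had no second value. Log2 ratios between genes used log2(TPM + 0.1) within a library, while fold values between genes are plain ratios of TPM. Ratios between libraries used rounded counts with TMM scaling (edgeR 4.0.16, with DESeq2 1.42.0 size factors as an alternative), a prior count of 0.5 and exact binomial intervals at 95%. The ratios between libraries and the counting intervals were checked on simulated counts in Python 3.11.15 with scipy 1.17.1. Changes were simulated only in genes with more counts than Alox5 or Ltc4s. Levels, ratios of TPM between genes and transcript shares were not simulated. No p-value was computed, since 1 group allows no comparison of conditions. The replicates differed beyond counting error (chi-square per degree of freedom 70.6), and were kept as 2 samples. Named were all 10 genes with their highest transcripts, the 2 highest genes of each pathway list, the genes in a ratio and the highest marker where used, and others are said to be chosen later. The genes and lists were chosen with earlier results of these data known. Promoters come from RefSeq on GRCm38.p6, the same assembly as mm10, and 9 of the 10 genes matched. Alternatives were the second quantification, another pseudocount, CPM or counts in place of TPM, TPM over protein-coding genes, other thresholds and scalings, and each library left out.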

Additional observations from a re-analysis of the deposited data

How the results depend on the processing

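The count of synthesis genes at 1 TPM or more was 9, 8 in the second quantification and 10 with TPM over protein-coding genes, and that of other pathway genes was 25, 25 and 35. None of the 10 genes was apart between libraries under any alternative run. The mean log2 ratio of Ptgs1 to Ptgs2 turned from -0.18 to 0.33 in the second quantification and was -1.30 by CPM, which is not per length. With either library left out it ran from -0.83 to 0.46, so its sign in the gene-level tables rests on the library. The second quantification gave 0.63 in replicate 1 and 0.02 in replicate 2. The other ratios kept their sign under each alternative run. In the second quantification Ptges3 to Ptges was 0.77, Ptges2 to Ptges -1.51, Alox5ap to Alox5 5.37 and Lta4h to Ltc4s 3.56. With a pseudocount of 1, Ptges3 to Ptges was 1.76, Alox5ap to Alox5 4.31 and Lta4h to Ltc4s 3.50. By CPM, Ptges3 to Ptges was 1.33, Ptges2 to Ptges -1.55, Alox5ap to Alox5 4.58 and Lta4h to Ltc4s 6.62. The median protein-coding share of the 10 genes was 65.0%, 32.4% in the second quantification and 85.3% by transcript counts. The 4 genes with over 50% in retained-intron transcripts became 2 in the second quantification and 2 by transcript counts, and the 4 with under 50% in protein-coding ones became 6 and 2. These counts under other settings were chosen after seeing the data. The shares over all genes given above are by transcript TPM of the transcript tables only. Whether these shifts are particular to the 10 genes was thus not tested. A larger pseudocount lowers ratios to low genes by construction, and for the second quantification the cause was not tested. Member levels there were lower for 8 genes and higher for 2, at 0.570 to 1.39 times the gene-level mean, and TPM over protein-coding genes raised all 10 by 3.49 to 3.55 times. The library ratio of Ptges2 turned from -0.15 to 0.28 and that of Lta4h from 0.10 to -0.03 in the second quantification, while the other 8 kept their sign. No paired analysis was possible because there is 1 group. With 2 libraries, an SD is itself poorly known, and Alox5 and Ltc4s, at 25 counts or fewer, limit every ratio they enter.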

Other observations

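Genes that overlap the synthesis genes or Ltc4s carried counts of their own. Gm19719, antisense to Alox5ap, had 280 counts in replicate 1 and 314 in replicate 2, and 1700025N23Rik, antisense within Tbxas1, had 61 and 32. Gm26542, antisense over Ltc4s, had 73 and 29 counts, beside 3 and 2 for Ltc4s. Whether reads were shared between strands was not tested.

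For some genes the sign of the library difference depended on the scale. Ptges had a log2 ratio, replicate 1 over replicate 2, of 0.18 by scaled counts and -0.44 by TPM, and its effective length in the tables was 3413 bases in replicate 1 and 2178 in replicate 2. Alox5 had -0.19 by scaled counts and 0.74 by TPM, with effective lengths of 1142 and 2413 bases.

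Some transcripts and genes differed several-fold between the quantifications. Pla2g4a-203, a processed transcript of 247 bases, was listed at 0 in both libraries of the transcript tables and at 2.77 and 9.16 TPM in the second quantification. Slco2a1, a prostaglandin transporter, had 0.01 and 0 TPM, and 0.492 and 1.13 TPM in the second quantification. Cmklr1 had 22.47 and 11.62 TPM, and 47.4 and 29.7 TPM in the second quantification.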
